A study of Mus musculus with 32 samples.

Results

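The 30 genes described here are mouse genes of homologous recombination and of the DNA damage checkpoint, followed in neural stem cells (NSCs) treated with interferon-β (IFN-β). They were chosen by name from these pathways, with earlier results of these data known. All 30 were found by gene symbol among the 23035 genes of the footprint tables. Homologous recombination mends a broken chromosome by copying the intact sister strand, so it works in S and G2 phases, when a sister exists. In NSCs, as in other dividing cells, the same proteins rescue stalled replication forks, while the checkpoint kinases Atm, Atr, Chek1 and Chek2 hold back the cell cycle until damage is mended. Many of these genes are transcribed mainly as cells enter S phase and others at all stages of the cycle.

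The cells were NSCs from the ventricular-subventricular zone (vSVZ) of wild-type C57BL/6 mice aged 8 to 12 weeks, grown ex vivo with EGF and FGF and carrying no transgene. They received IFN-β or vehicle (BSA in PBS) for 2 h or for 14 h, with 4 cultures in each of these 4 groups. From every culture, ribosome-protected mRNA fragments (footprints, counted within coding sequences) and total RNA were sequenced, 32 libraries in all. Footprint levels are given as CPM (counts divided by the TMM-scaled library size, as edgeR gives them), computed apart for each time, and changes as the log2 fold change of IFN-β over vehicle. Both are relative to the other footprints of a library, so a change shared by all genes does not show in them. A gene was called changed when edgeR's quasi-likelihood test gave a Benjamini-Hochberg adjusted p under 0.05 over all genes tested.

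Footprint libraries held from 2956297 to 10505108 counts. All 6 interferon response genes listed as a check were called higher in footprints at both times. The 7 NSC markers summed to between 10610 and 17786 CPM in all footprint libraries, and the microglial markers Aif1 and Cx3cr1 had no counts in any. Of the 7, Slc1a3 and Fabp7 were lower at 14 h (log2 fold change -0.36 and -0.40, adjusted p = 7.41e-05 and 0.000128) and Hes1 was higher (0.23, adjusted p = 0.0126), as was the neuronal marker Tubb3 (0.23, adjusted p = 0.0295). The summed 6 oligodendrocyte lineage markers were lower with IFN-β at 2 h (484 to 517 CPM against 813 to 969), where Olig2 alone was called. The summed 3 astrocyte markers were higher with IFN-β at 14 h (918 to 1140 CPM against 475 to 589), almost all of it Aldh1l1. In the 2 h cultures these 3 stood higher than at 14 h, at 1345 to 2469 CPM with vehicle and 1339 to 2597 CPM with IFN-β. The summed 6 microglial markers were also higher with IFN-β at 14 h (21.2 to 26.7 CPM against 5.99 to 8.81), nearly all of it P2ry12. The part of these lists in the results was not tested. Both libraries numbered 3 at 2 h, vehicle and IFN-β, stood apart from the others: their genes deviated from the group means by a median of 0.21 on the log2 scale, against 0.08 to 0.12 in the other 2 h libraries.

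The members were read in classes set from general knowledge of the cell cycle. The 16 S-phase-bound members, transcribed mainly from the G1/S border onwards, were Brca1, Brca2, Bard1, Rad51ap1, Rad54l, Blm, Exo1, Fanca, Fancb, Fancd2, Fanci, Rmi2, Psmc3ip, Chek1, Topbp1 and Msh6. The 9 members expressed throughout the cycle were Atm, Atr, Chek2, Mre11a, Nbn, Rad50, Rad51c, Rad51d and Xrcc3. Palb2, Xrcc2, Rad54b, Rmi1 and H2afx were assigned to neither class.

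E2F factors drive transcription at the G1/S border, so the promoters were searched for letters like their binding site. RefSeq promoter windows (GRCm38.p6, 250 bases before to 50 after the start site) were at hand for 21 members. Nbn, Rad50, H2afx, Rad51d, Xrcc2, Rad54b, Exo1, Rmi2 and Fancd2 had no entry. E2F-like letters (TTTCCCGC, TTTCGCGC, TTTGCCGC or TTTGGCGC, on either strand) stood in the windows of 7 of the 21, or 33.3%, against 2.6% of 27025 genes in the whole table. They are shown because they were found in both classes: in 4 of 13 S-phase-bound members with a window, in 2 of 6 throughout members, and in Rmi1. These shares hold for the exact letters searched. Related letters were not counted, such as the GCGGGAA in the windows of Chek1, Rad51ap1, Fancb, Fanci and the throughout member Atm. Each stretch of 60 bases runs 5′ to 3′ on the gene's strand, with the E2F-like letters in capitals.
Bard1, chr1:71103148-71103207, minus strand: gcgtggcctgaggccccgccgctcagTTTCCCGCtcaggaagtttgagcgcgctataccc
Brca2, chr5:150522427-150522486, plus strand: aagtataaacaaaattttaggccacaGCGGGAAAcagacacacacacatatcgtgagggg
Topbp1, chr9:103305172-103305231, plus strand: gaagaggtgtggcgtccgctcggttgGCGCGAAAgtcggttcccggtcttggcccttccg
Msh6, chr17:87975039-87975098, plus strand: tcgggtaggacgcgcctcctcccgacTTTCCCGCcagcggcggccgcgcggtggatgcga
Chek2, chr5:110839805-110839864, plus strand: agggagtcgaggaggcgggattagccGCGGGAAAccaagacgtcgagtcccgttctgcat
Rad51c, chr11:87404926-87404985, minus strand: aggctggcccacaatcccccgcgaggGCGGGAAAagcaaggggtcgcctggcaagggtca
Rmi1, chr13:58402587-58402646, plus strand: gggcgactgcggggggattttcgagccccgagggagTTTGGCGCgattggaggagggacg

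In Brca2, Topbp1, Chek2 and the Rad51c stretch shown, the letters read on the other strand. A second Rad51c window, of another start site, held TTTCGCGC on the gene's own strand, from 11 bases after that start. The match began 209 bases before the start site in Bard1, 168 in Brca2, 152 in Chek2 and 129 in Topbp1, and it lay within 33 bases of the start site in Rad51c, Msh6 and Rmi1. The CCAAT box was found in 66.7% of the 21 members against 41.1% of all genes, the CHR letters TTTGAA of mitotic genes in 4.76% against 20.2%, and letters of the interferon-stimulated response element (ISRE) in 9.52% against 3.99%. A match is a description of letters and not of a bound site, and 0 of the E2F-like matches overlapped a match of another motif.

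At 14 h footprints of 29 of the 30 members were called lower with IFN-β and none higher. Of the 12113 genes tested, 26.3% were called lower. Since the members were chosen with earlier results known, these shares are a description and were not tested against each other. The members' median log2 fold change was -1.35, a level 0.393 times that with vehicle, beside 0.00 over all genes tested, and 20 of the 30 members fell by more than 1 on the log2 scale. The exception was Rad51d. In each of the 29 members, all IFN-β libraries lay below all vehicle libraries, a separation that 23.7% of all genes tested also showed. No member was higher at an unadjusted p under 0.05 by edgeR, DESeq2 or limma-voom. In cultures read in bulk, fewer cells in S phase and fewer footprints per cell cannot be told apart.

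**Figure D1:**
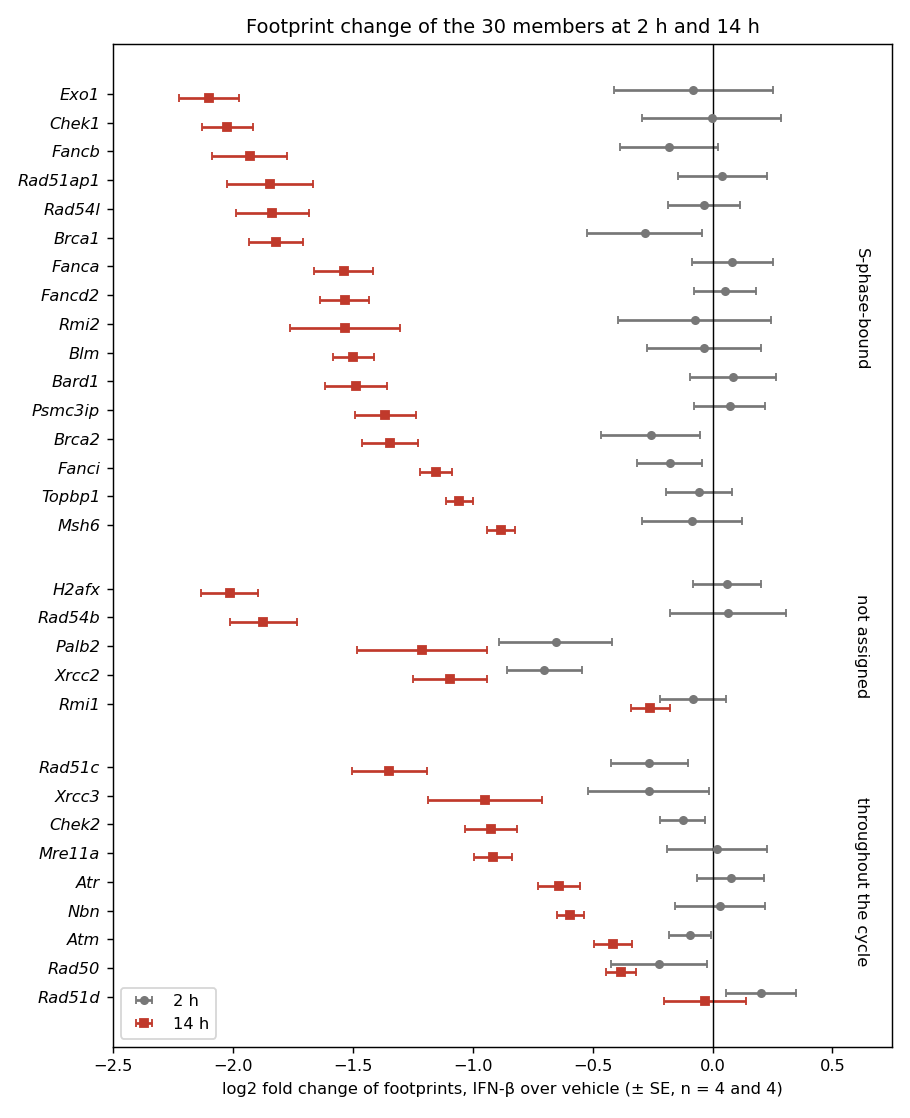
Log2 fold change of footprints (x axis, IFN-β over vehicle, ± SE, 4 libraries a group) of each of the 30 members, grouped by class and ordered by the change at 14 h. Grey circles show 2 h and red squares 14 h. At 14 h all S-phase-bound members lie between -2.10 and -0.88, the throughout members between -1.35 and -0.03, and at 2 h most members lie near 0.

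Among the damage sensors, the MRN complex of Mre11a, Nbn and Rad50 holds broken ends and recruits Atm. All 3 fell, each by less than the median member: the log2 fold change at 14 h was -0.91 for Mre11a, -0.59 for Nbn and -0.38 for Rad50, with adjusted p of 6.26e-07, 1.45e-06 and 0.000228 by edgeR. Topbp1, the activator of Atr at stalled forks, fell by 1.06 on the log2 scale (SE 0.06, adjusted p = 5.19e-09).

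H2afx (chr9:44334694-44336077), the histone variant phosphorylated around breaks, had the highest footprint level of the members per kilobase of coding length. At 14 h its vehicle libraries read 562, 700.2, 729 and 738 CPM and its IFN-β libraries 137, 148, 183 and 203 CPM. The groups did not overlap, and the log2 fold change was -2.01 (SE 0.12, adjusted p = 1.52e-08 by edgeR). At 2 h its vehicle libraries read 587 to 816 CPM and its IFN-β libraries 582 to 859 CPM, which overlapped throughout. H2A genes are near copies of each other, so short footprints can be shared among them and the H2afx values are uncertain.

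The checkpoint kinase Chek1 (chr9:36708482-36727065), which answers to Atr at stalled forks, fell to 24.6% of the vehicle level at 14 h. Its vehicle libraries read 27.7, 31.6, 31.7 and 34.8 CPM and its IFN-β libraries 7.04, 7.36, 8.28 and 8.71 CPM. The gap between the groups was wider than the spread in either, and the log2 fold change was -2.02 (SE 0.11, adjusted p = 5.19e-09 by edgeR). Chek2, the kinase that answers to Atm at breaks, fell from 19.7, 21.7, 22.4 and 22.6 CPM to 9.48, 11.1, 11.9 and 12.6 CPM. Its groups did not overlap either, and its log2 fold change was -0.93 (SE 0.11, adjusted p = 1.29e-05).

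Both apical kinases fell. Atr, recruited to single-stranded DNA, read 41.9, 45.0, 49.3 and 53.1 CPM with vehicle and 27.7, 29.3, 31.1 and 33.8 CPM with IFN-β at 14 h. Atm, recruited to breaks, read 83.5, 90.8, 104 and 105 CPM with vehicle and 67.4, 68.9, 72.0 and 77.7 CPM with IFN-β. Both separated by group, with log2 fold changes of -0.64 for Atr (SE 0.09, adjusted p = 5.74e-05) and -0.42 for Atm (SE 0.08, adjusted p = 0.000821).

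Brca1 and Bard1 form the ubiquitin ligase that starts repair by recombination. At 14 h Brca1 read 45.0, 45.7, 45.9 and 52.4 CPM with vehicle and 9.91, 14.4, 14.6 and 15.1 CPM with IFN-β. Bard1 read 26.0, 26.6, 29.4 and 29.4 CPM with vehicle and 8.04, 8.50, 9.62 and 13.1 CPM with IFN-β. Neither gene's groups overlapped, and the log2 fold changes were -1.82 for Brca1 and -1.49 for Bard1 (SE 0.11 and 0.13, adjusted p = 2.66e-08 and 7.84e-07 by edgeR). Palb2, the bridge between Brca1 and Brca2, fell by 1.21 on the log2 scale at a low level (6.25 ± 1.67 CPM with vehicle, SD, n = 4), and Brca2, which acts in the loading step of strand exchange, fell by 1.34 on the same scale.

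Rad51c, Rad51d, Xrcc2 and Xrcc3, related proteins that work together in strand exchange, behaved unevenly. Rad51c fell by 1.35, Xrcc2 by 1.09 and Xrcc3 by 0.95 on the log2 scale at 14 h, with adjusted p of 1.08e-05, 6.33e-05 and 0.00498. Rad51d (chr11:82876434-82890614) was the 1 member not called. Its vehicle libraries read 7.35, 11.5, 11.6 and 12.8 CPM and its IFN-β libraries 8.71, 9.91, 11.7 and 13.0 CPM, which overlapped over nearly their whole range. The log2 fold change was -0.03 (SE 0.17, adjusted p = 0.893), and its sign turned when any of 3 libraries was left out.

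The group of Rad51ap1, Rad54l, Rad54b and Psmc3ip, accessory factors of strand exchange, had the lowest median of the groups, at -1.84 on the log2 scale. Rad51ap1 (chr6:126923050-126939587), which stimulates strand pairing, read 25.3, 25.5, 27.4 and 31.9 CPM with vehicle and 4.31, 7.04, 9.04 and 9.77 CPM with IFN-β at 14 h. The lowest vehicle library stood well above the highest IFN-β library, and the log2 fold change was -1.84 (SE 0.18, adjusted p = 2.26e-06 by edgeR). Psmc3ip, which also acts in meiotic recombination, fell by 1.36 on the log2 scale.

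The motor proteins Rad54l and Rad54b, which remodel DNA during strand exchange, both fell. Rad54l read 19.2, 20.0, 21.1 and 22.6 CPM with vehicle and 4.02, 4.69, 6.64 and 7.06 CPM with IFN-β. Rad54b (chr4:11558922-11615805) read 12.1, 12.4, 13.1 and 13.2 CPM with vehicle and 3.05, 3.16, 3.69 and 4.21 CPM with IFN-β. The groups of both genes stood apart, with log2 fold changes of -1.84 (SE 0.15, adjusted p = 4.72e-07) and -1.87 (SE 0.14, adjusted p = 1.69e-07).

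Exo1 (chr1:175880581-175913489), the nuclease that resects broken ends, had the largest change among the members. At 14 h it read 38.7, 39.7, 40.0 and 41.3 CPM with vehicle and 6.75, 7.37, 10.8 and 11.0 CPM with IFN-β. That was 23.3% of the vehicle level, with a log2 fold change of -2.10 (SE 0.13, adjusted p = 1.79e-08 by edgeR). The helicase Blm, which with the Rmi proteins takes apart joined strands, fell by 1.50 on the log2 scale.

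Rmi1 and Rmi2, both subunits of the Blm complex, were both called lower. Rmi2 read 6.73, 6.87, 7.16 and 8.83 CPM with vehicle and 0.67, 2.59, 2.94 and 3.01 CPM with IFN-β at 14 h. Rmi1 read 24.4, 25.1, 26.3 and 26.4 CPM with vehicle and 19.8, 20.7, 21.04 and 23.1 CPM with IFN-β. All IFN-β libraries were below the vehicle libraries for both, and the log2 fold change was -1.53 for Rmi2 (SE 0.23, adjusted p = 0.000108) and -0.26 for Rmi1 (SE 0.08, adjusted p = 0.0158). Rmi1 was not called by DESeq2 (adjusted p = 0.0531) or without IFN-β replicate 4 (adjusted p = 0.0588).

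The Fanconi anaemia genes, which unhook DNA crosslinks, all fell. Fancb (chrX:164980592-164997272), a subunit of the core ligase, read 13.0, 13.9, 13.9 and 14.1 CPM with vehicle and 2.01, 3.16, 4.06 and 4.25 CPM with IFN-β at 14 h. Its groups were far apart, and the log2 fold change was -1.93 (SE 0.16, adjusted p = 3.88e-07 by edgeR). Fanca, another core subunit, fell by 1.54 on the log2 scale.

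Fancd2 and Fanci form the clamp that the core ligase marks with ubiquitin. Fancd2 read 38.5, 40.2, 40.4 and 41.0 CPM with vehicle and 9.38, 14.1, 14.3 and 15.4 CPM with IFN-β, with a log2 fold change of -1.53 (SE 0.10, adjusted p = 4.94e-08). Fanci read 58.2, 64.3, 65.6 and 65.7 CPM with vehicle and 27.5, 27.9, 29.0 and 29.1 CPM with IFN-β, with a log2 fold change of -1.15 (SE 0.07, adjusted p = 1.25e-08). The groups of neither overlapped. Msh6, which recognises mismatches after replication, fell by 0.88 on the log2 scale and had the smallest change of the S-phase-bound members.

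**Figure D2:**
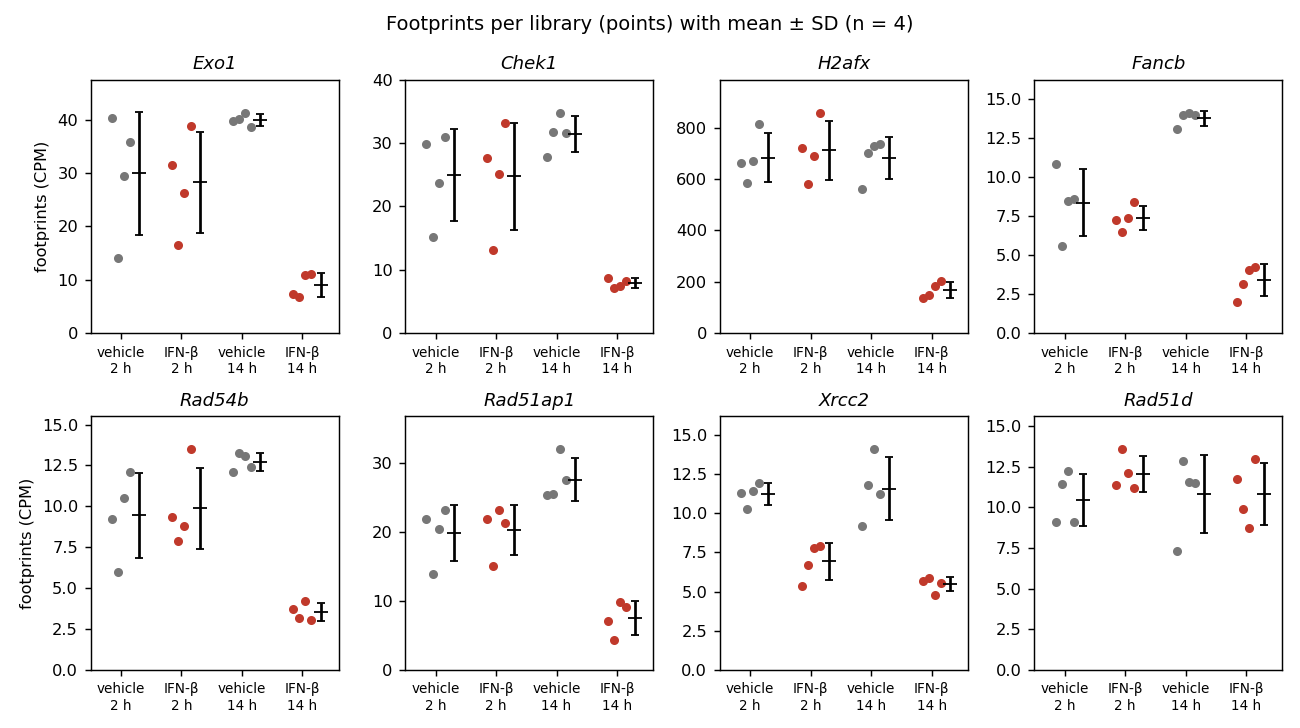
Footprints (y axis, CPM from 0) per library for the 6 members with the largest change at 14 h, for Xrcc2, called at 2 h, and for Rad51d, not called; grey points are vehicle, red points IFN-β, and the bar is the mean ± SD of 4 libraries. At 14 h the red points of the first 7 genes lie below all grey points, and those of Rad51d overlap them.

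Within each of 6 family pairs, the log2 ratio of the footprints of one gene to those of the other (CPM + 0.5) was compared between treatments with an exact two-sided permutation test, which with 4 against 4 libraries cannot go below 0.0286. This test was added after the values were known, and 12 comparisons were made over both times. It took the libraries as unpaired, although same-numbered footprint cultures deviated together, so its p-values do not allow for the pairing. At 14 h the ratio of Chek1 to Chek2 went from 0.53 ± 0.14 with vehicle to -0.49 ± 0.15 with IFN-β (log2, SD, n = 4). Per kilobase of coding length, Chek1 stood above Chek2 with vehicle (22.0 against 13.2 CPM per kb) and below it with IFN-β (5.50 against 6.87 CPM per kb). The ratio of Rmi2 to Rmi1 went from -1.73 ± 0.19 to -3.07 ± 0.71, and that of Fancd2 to Fanci from -0.66 ± 0.05 to -1.09 ± 0.28. In each of these pairs all IFN-β ratios lay below all vehicle ratios (exact p = 0.0286, adjusted over the 12 comparisons 0.0857), which did not pass the adjusted threshold. With p at its floor here, passing would have needed more comparisons at the floor, so the adjusted values cannot decide whether these ratios changed.

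The ratio of Atr to Atm changed by -0.21 (exact p = 0.0857, adjusted 0.171), that of Brca1 to Bard1 by -0.30 (exact p = 0.314, adjusted 0.471) and that of Rad54l to Rad54b by -0.10 (exact p = 0.657, adjusted 0.779). For these 3 pairs the ratios of the groups overlapped. At 2 h the ratio of Fancd2 to Fanci moved the other way, from -0.42 ± 0.10 to -0.20 ± 0.05 (exact p = 0.0286, adjusted 0.0857), and the other 5 pairs overlapped (exact p from 0.0857 to 0.943).

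**Figure D3:**
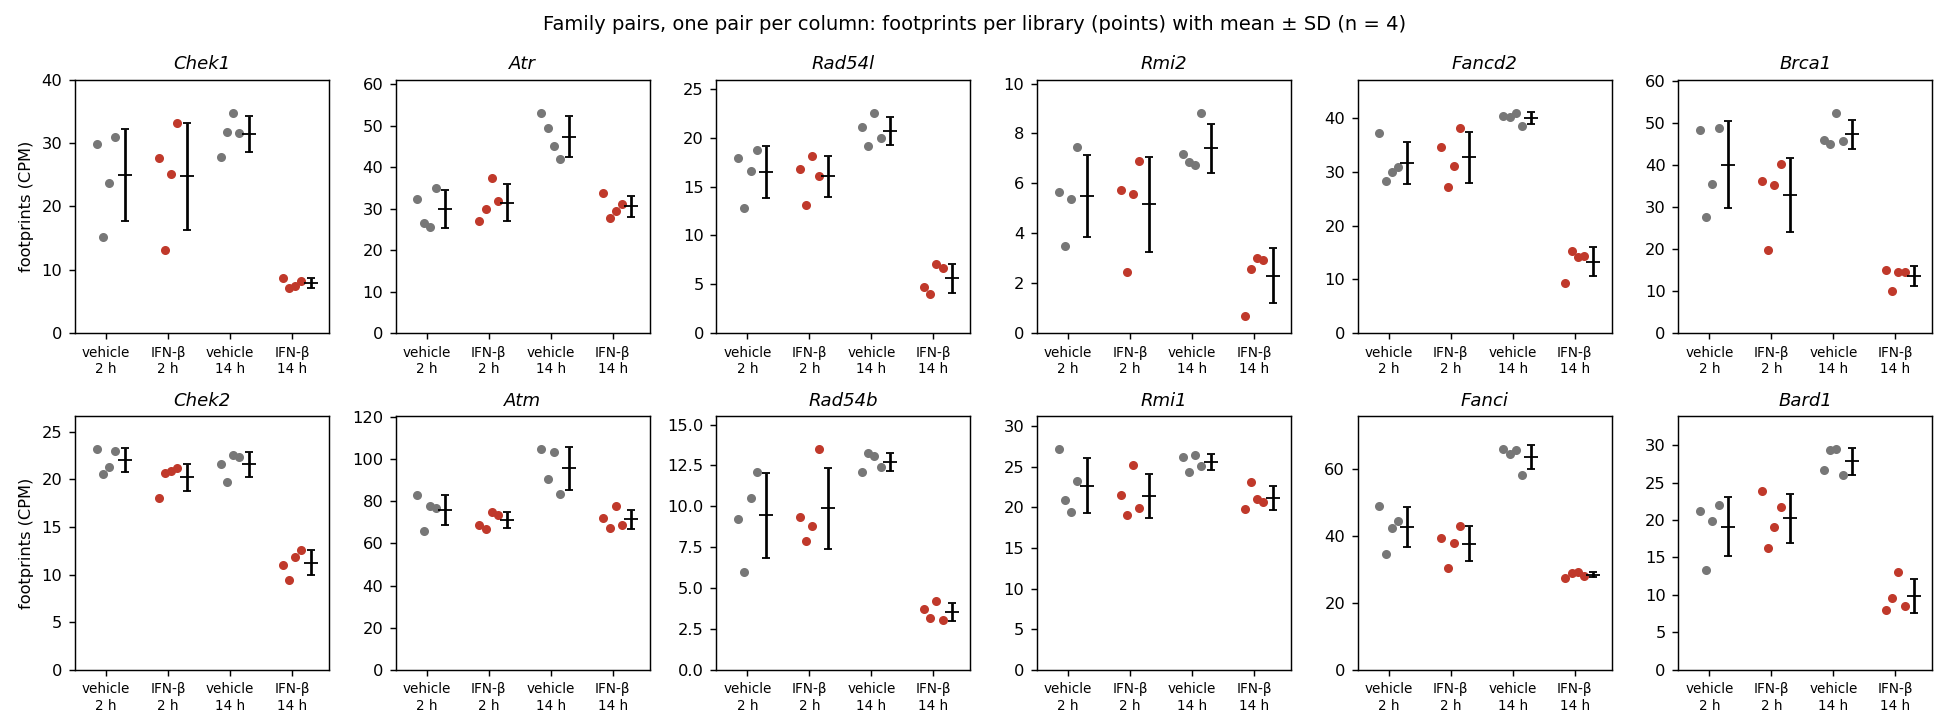
Footprints (y axis, CPM from 0) per library for 6 family pairs, 1 pair in each column, with vehicle in grey, IFN-β in red and the mean ± SD of 4 libraries. At 14 h Chek1, Rmi2 and Fancd2 in the upper row have larger log2 fold changes (-2.02, -1.53 and -1.53) than Chek2, Rmi1 and Fanci below them (-0.93, -0.26 and -1.15).

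Set beside each other, the classes overlapped in range but not in centre. All 16 S-phase-bound members were called lower at 14 h, their log2 fold changes having a median of -1.53 and a range from -2.10 to -0.88, and 15 of them were below -1. Of the 9 throughout members 8 were called lower, with a median of -0.64, a range from -1.35 to -0.03, and 1 member, Rad51c, below -1. There were 12 S-phase-bound members below the lowest throughout member and 5 throughout members (Atr, Nbn, Atm, Rad50 and Rad51d) above the highest S-phase-bound member, Msh6. The 5 unassigned members spanned almost the whole range, from -2.01 for H2afx and -1.87 for Rad54b to -0.26 for Rmi1. With these 5 added, the throughout median was -0.92 and the S-phase-bound median stayed at -1.53. The classes were described and not tested, since they were drawn up with results known.

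In single libraries the same order was seen. The class medians of log2 (CPM + 0.5), relative to the vehicle mean, averaged -1.55 ± 0.14 in the IFN-β libraries for the S-phase-bound members and -0.66 ± 0.07 for the throughout members (SD, n = 4). Replication genes used as an S-phase reference (Mcm, Gins and Rrm genes, Pcna, Cdc6, cyclins E and others) averaged -1.71 ± 0.18, and 18 of 18 were called lower. Mitotic genes such as Cdk1 and Plk1 averaged -1.25 ± 0.15, with 10 of 10 called lower. The members moved together with genes of S phase and mitosis, and the part of the cell cycle genes' change in theirs was not tested.

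**Figure D4:**
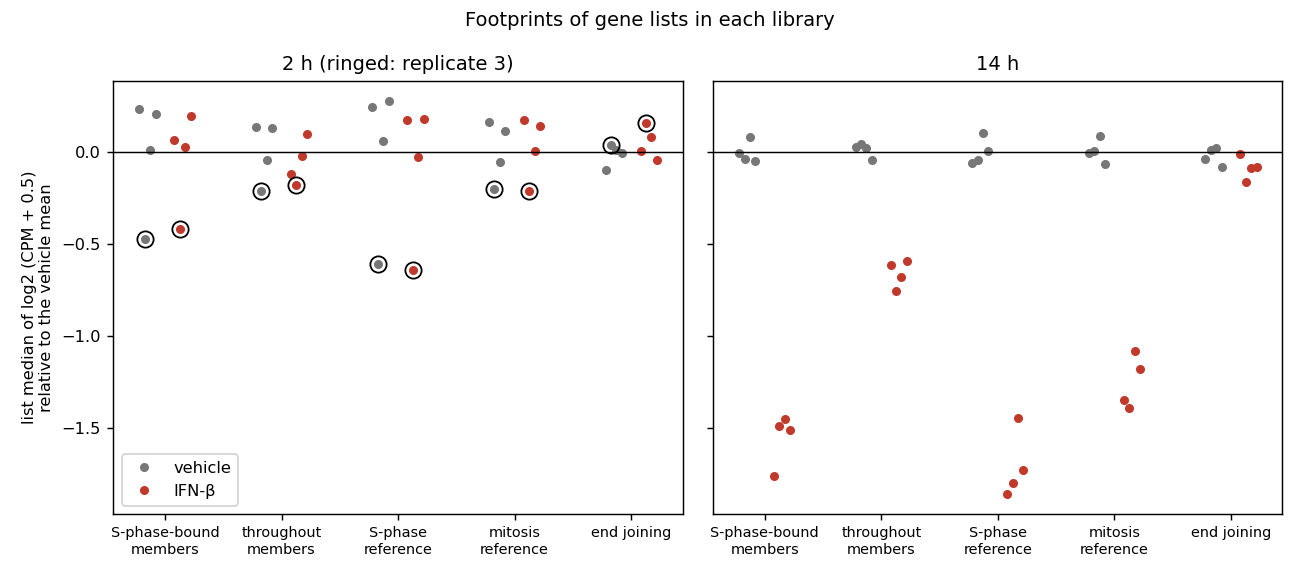
Median over each gene list of log2 (CPM + 0.5) relative to the vehicle mean (y axis) in every library, vehicle in grey and IFN-β in red, at 2 h (left, libraries numbered 3 ringed) and 14 h (right). At 14 h the S-phase-bound members average -1.55 and the throughout members -0.66 with IFN-β; at 2 h both ringed libraries lie low in every list shown except end joining, where they lie highest of their treatment.

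Per kilobase of coding length, the order of levels among the members also shifted at 14 h. With vehicle, H2afx stood at 1591 CPM per kb, and next came Msh6 at 35.5, Psmc3ip at 34.2, Topbp1 at 32.9, Nbn at 29.9, Rad51ap1 at 27.2 and Chek1 at 22.0. With IFN-β, H2afx stood at 391 CPM per kb, followed by Nbn at 19.8, Msh6 at 19.2, Topbp1 at 15.9, Psmc3ip at 12.6, Rmi1 at 11.4, Rad50 at 11.3 and Rad51d at 10.7. Palb2 was the lowest member in both, at 1.81 and 0.76 CPM per kb.

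At 2 h few members were called. In the main fit, which took the libraries as unpaired, only Xrcc2 was called, lower, and none was called higher. In that fit 2.01% of 12104 genes were called lower. Xrcc2 (chr5:25689812-25705825) read 10.3, 11.3, 11.4 and 12.0 CPM with vehicle and 5.37, 6.68, 7.80 and 7.89 CPM with IFN-β. Its groups did not overlap, and the log2 fold change was -0.70 (SE 0.15, adjusted p = 0.0244 by edgeR). The call was lost, at adjusted p of 0.0612 to 0.0755, without vehicle replicate 2, 5 or 6 or without IFN-β replicate 2. The only other member without overlap at 2 h was Palb2, at 4.59 to 6.08 CPM with vehicle and 1.97 to 3.87 CPM with IFN-β (log2 fold change -0.65, SE 0.23, adjusted p = 0.166). A separation of this kind was seen in 5.14% of all genes tested.

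Cultures with the same replicate number deviated together at 2 h. With the number as a block, 5 members were called lower, Xrcc2, Palb2, Brca1 (-0.29), Brca2 (-0.27) and Rad50 (-0.23), with adjusted p of 0.00804 for Brca1, 0.0248 for Brca2, 0.0129 for Palb2 and 0.029 for Rad50. In that fit 13.4% of all genes were called lower. None was called higher, and none was higher at an unadjusted p under 0.05 by edgeR with or without the block, DESeq2 or limma-voom. Medians at 2 h were -0.05 on the log2 scale for the S-phase-bound and -0.09 for the throughout members, beside -0.02 over all genes.

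The spread at 2 h followed the culture number in part. In the libraries numbered 3 the S-phase-bound members had a median of -0.47 with vehicle and -0.42 with IFN-β relative to the vehicle mean, and the S-phase reference genes of -0.61 and -0.64. The other 2 h libraries lay between 0.01 and 0.23 for the S-phase-bound members. Exo1, for example, read 14.1 CPM in vehicle replicate 3 and 29.5, 35.7 and 40.3 CPM in the other vehicle libraries, and 16.4 CPM against 26.2, 31.6 and 38.8 CPM with IFN-β. Chek1 read 15.2 CPM against 23.7, 29.9 and 31.0 CPM with vehicle, and 13.2 CPM against 25.1, 27.6 and 33.2 CPM with IFN-β. Without both libraries numbered 3, an alternative chosen after seeing the data, Xrcc2 remained the only member called in the unpaired fit.

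The change at 14 h differed from that at 2 h in most members. The change at 14 h was set against that at 2 h in 1 edgeR model of the 16 footprint libraries (an interaction term). All 30 members had a lower log2 fold change at 14 h than at 2 h. In 23 of them the difference was called lower and in none higher, while 15.5% of 12508 genes were called lower. All 16 S-phase-bound members were among the 23, with differences from -2.02 for Exo1 to -0.79 for Msh6. So were 5 of 9 throughout members, Mre11a, Nbn, Atr, Chek2 and Rad51c, and the unassigned H2afx (-2.07) and Rad54b (-1.92). Rad50, Atm, Palb2, Rad51d, Xrcc2, Xrcc3 and Rmi1 were not called, at adjusted p from 0.0656 (Atm) to 0.639 (Rad50). Atm was called with the replicate block (difference -0.29, adjusted p = 0.00306). No member was higher at an unadjusted p under 0.05 by edgeR, DESeq2 or limma-voom. Cultures at the 2 times carried different numbers in part. Their summed astrocyte markers also differed, at 1345 to 2469 CPM with vehicle at 2 h and 475 to 589 CPM at 14 h. Culture and time therefore cannot be fully told apart.

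The rest of the pathway was looked at in a list of 51 other genes of homologous recombination, crosslink repair and the checkpoint, of which 49 were tested. At 14 h 33 of the 49 were called lower and none higher, and the median of their log2 fold changes was -0.67. Among the lowest were Clspn, the adaptor between Atr and Chek1 (-2.11, SE 0.11, adjusted p = 6.05e-09), and the resection nuclease Dna2 (-1.93, SE 0.09, adjusted p = 1.59e-09). At 2 h 2 of the 49 were called, both higher, where 5.25% of 12104 genes were called higher: the Fanconi gene Fance (0.83, SE 0.20, adjusted p = 0.0396) and Atrip, the partner of Atr (0.50, SE 0.12, adjusted p = 0.0309).

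End joining mends breaks at any stage of the cycle without a sister strand. Of its 10 listed genes, 2 were called lower and 2 higher at 14 h. The shares over all genes tested were larger, 26.3% lower and 26.2% higher. The log2 fold changes ran from -0.51 to 1.26 with a median of -0.06. Xrcc6 and Prkdc, parts of the kinase that holds broken ends, were lower (-0.51 and -0.41, adjusted p = 4.3e-05 and 0.00774). Dclre1c, the nuclease that trims ends, was higher, from 6.24 to 8.81 CPM with vehicle to 13.4 to 19.5 CPM with IFN-β (1.26, SE 0.14, adjusted p = 1.1e-05), and so was the scaffold gene Paxx (0.46, SE 0.16, adjusted p = 0.0326). None of the 10 was called at 2 h.

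**Figure D5:**
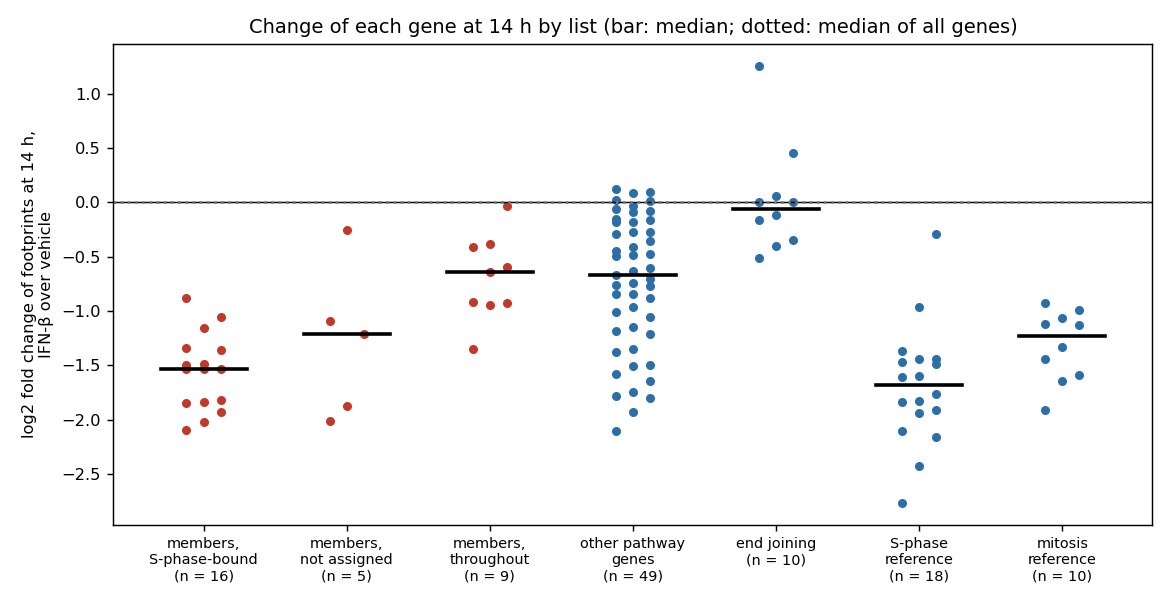
Log2 fold change of footprints at 14 h (y axis, IFN-β over vehicle) of each gene, by class of member (red) and for the other gene lists (blue); bars are list medians and the dotted line is the median of all genes, 0.00. The S-phase-bound members (median -1.53) lie with the S-phase reference, and the throughout members (median -0.64) with the other pathway genes (median -0.67).

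Total RNA gave little on the members. Of the 6 interferon response genes, 3 could be tested in it at each time. Of these, 1 was called higher at 2 h and 2 at 14 h. The median member had 27.5 counts per library at 2 h and 9.25 at 14 h, against 174 and 146.5 in footprints (medians over the members of each one's median library), so 23 members could be tested at 2 h and 16 at 14 h. None was called at 2 h by edgeR, DESeq2 or limma-voom, where 0.799% of 11639 genes were called, and 1 was lower at an unadjusted p under 0.05. At 14 h 6.3% of 7520 genes and 1 member were called: Psmc3ip was higher (log2 fold change 0.91, SE 0.23, adjusted p = 0.0237), while its footprints fell. That call was lost with total counts in place of TMM scaling, without genes whose exons overlap another gene's on the opposite strand, or without any of 5 libraries (IFN-β replicate 1, 2 or 3, vehicle replicate 2 or 4).

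Exons of Psmc3ip overlap those of Mlx on the opposite strand by 385 bases, and 15 of the 30 members have such an overlap. The members with the most total RNA counts at 14 h were among them, such as Fanci (opposite Polg), Rad54l (opposite Lrrc41) and Mre11a (opposite Ankrd49), while Fancb, with 13.7 ± 0.48 CPM in vehicle footprints, had 0 or 1 counts in each total RNA library at 14 h. At 2 h the median member without an exon overlap had 12 total RNA counts per library against 191 in footprints. For members with an overlap these medians were 54.5 and 160.5. The study's methods name NEBNext Ultra Directional for total RNA. Whether counting used strand is not given in the sources used here, so for members with an overlap sense and antisense reads cannot be told apart. Which strand the few counts of the others came from was not tested. The lack of calls in total RNA therefore does not show that the members' RNA was unchanged.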

How the data were processed

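Footprint and total RNA libraries of NSCs were analysed, 4 in each of 8 groups taken from the sample labels. Per their methods and processing notes, the authors trimmed reads with Trim Galore 0.4.4, mapped them with Bowtie 0.12.7 to the mm10 transcriptome (GRCm38, ENSEMBL 93), took out duplicates and assigned the remaining reads to genes, for footprints within coding sequences. The deposited values are these raw counts, and the strand setting is not given in the sources used here. Without molecular identifiers, duplicate removal by position can lower the counts of highly covered genes.

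Symbols, positions and coding lengths (all annotated coding bases of a gene merged) came from the GENCODE M21 annotation of the same build, which held 22282 of 23035 footprint genes. A gene entered a comparison if 4 or more of its libraries held 10 or more counts, and was then tested with edgeR 4.0.16 (TMM, quasi-likelihood F test, Benjamini-Hochberg) in R 4.3.3, without a replicate block. The SE is the log2 fold change divided by the root of F. DESeq2 1.42.0, limma 3.58.1, other scalings and filters, the replicate block and leaving out libraries were alternatives. Python 3.11.15 with matplotlib 3.10.9 gave the remaining values.

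Replicates were different mice or cultures per the study's methods. Same-numbered footprint cultures deviated together (correlation of deviations from group means 0.35 to 0.82 at 2 h and 0.20 to 0.43 at 14 h), so the numbers pair them. In total RNA they did not (-0.48 to 0.39).

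The members and gene lists were chosen with earlier results of these data known. Values in every library are given for members called at 2 h, the 6 with the largest change at 14 h, and 6 family pairs, and Rad51d was added after its values were seen. Of the other pathway genes, the 3 with the largest called changes in each direction at 14 h were to be named, and 1 of them is not reported here. Fance and Atrip, the only ones called at 2 h, and the end joining genes called were named after their values were seen.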

Additional observations from a re-analysis of the deposited data

Results flagged for a closer look

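The footprint change differed between the exposures in 23 members, by the interaction of time and treatment (edgeR, adjusted p under 0.05 over all genes). The log2 fold change at 14 h minus that at 2 h was -2.07 for H2afx, -2.02 for Exo1, -2.01 for Chek1, -1.92 for Rad54b, -1.88 for Rad51ap1, -1.80 for Rad54l and -1.75 for Fancb. It was -1.61 for Fanca, -1.59 for Fancd2, -1.57 for Bard1, -1.53 for Brca1, -1.47 for Rmi2, -1.45 for Blm and -1.45 for Psmc3ip. It was -1.07 for Rad51c, -1.06 for Brca2, -0.99 for Topbp1, -0.97 for Fanci, -0.92 for Mre11a, -0.79 for Chek2, -0.79 for Msh6, -0.70 for Atr and -0.61 for Nbn. The last of these passed the threshold least firmly, being lost without any of 7 single libraries.

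Single libraries lay far from the other 3 of their group in 7 of 120 groups of 4 footprint libraries, where chance flags about 1 in 20. At 2 h Nbn read 29.2 CPM in vehicle replicate 3 against 51.4 to 54.9 CPM, and Topbp1 95.0 CPM in IFN-β replicate 3 against 124 to 126 CPM. These are the libraries numbered 3 described in the results. Palb2 read 1.97 CPM in IFN-β replicate 6 at 2 h against 3.76 to 3.87 CPM. At 14 h Brca1 read 52.4 CPM in vehicle replicate 3 against 45.0 to 45.9 CPM and 9.91 CPM in IFN-β replicate 2 against 14.4 to 15.1 CPM. Psmc3ip read 5.36 CPM in IFN-β replicate 1 against 9.32 to 9.91 CPM, and Fancb 13.0 CPM in vehicle replicate 1 against 13.9 to 14.1 CPM.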

How the results depend on the processing

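At 14 h the members called lower numbered 28 or 29 under every alternative that tested all 30, and 26 of 27 with a mean of at least 50 counts; none was called higher. Of the class medians, 1 moved by more than the spread between replicates: that of the throughout members, to -0.92 with the unassigned members added. With the replicate block, 5 members were called lower at 2 h and 0 or 1 when single libraries were left out; genes called numbered 3538 at 2 h and 6944 in the difference between times with the block, 1671 at 2 h without both libraries numbered 3, and 517 to 953 with single libraries left out. Apart from the calls at 2 h and that of Atm in the difference, the block changed no call of a member. In total RNA at 2 h, 93 genes were called, 169 by DESeq2, 174 without a filter, 44 with a mean of at least 50 counts, 49 without genes overlapping on the other strand and 30 to 74 with a library left out. At 14 h, 474 were called, 269 with total counts alone, 247 and 153 under the same restrictions and 171 to 450 with a library left out. Members called there numbered 1, but 0 with total counts alone or without overlapping genes, 2 without a filter (Psmc3ip higher and H2afx lower), and 0 to 1 with a library left out. The cause of these shifts was not tested. With single libraries left out, the change of Rad51d at 14 h ranged from -0.16 to 0.070, and at 2 h that of Chek1 over Chek2 from -0.10 to 0.37, of Rad54l over Rad54b from -0.21 to 0.040 and of Rmi2 over Rmi1 from -0.23 to 0.20.

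In total RNA, 7 members at 2 h and 14 at 14 h had too few counts to be tested. Its libraries held 3992402 to 7877753 counts at 2 h and 1370008 to 2737111 at 14 h. Footprint libraries at 2 h held 4956144 to 9361609 counts. The median count at 2 h was 54.5 in members with exons overlapping exons on the other strand and 12 in those without. The part of depth in the low counts was not tested. A block for total RNA left 0 members called at 2 h and 1 at 14 h.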
